A study of Mus musculus with 4 samples.

Results

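The subunits of Polycomb repressive complex 2 (PRC2) were followed in mouse embryonic stem (ES) cells through 7 genes, Ezh2, Ezh1, Eed, Suz12, Mtf2, Phf19 and Jarid2. The members were every probe that the annotation of the array assigned to these genes, 10 of 25697 probes, and they stood for 7 of 16593 named genes. The cells were of the OG2 line, which carries a green fluorescent protein transgene driven by Pou5f1 (Oct4) sequences. Before the experiment they grew on gelatin, with no feeder layer, in KSR medium that held 1 µM PD0325901 (a MEK inhibitor, which keeps ERK inactive), 3 µM CHIR99021 (a GSK3 inhibitor) and 1000 U/ml LIF (leukaemia inhibitory factor, which signals through JAK kinases to STAT3). They then spent 12 h in 1 of 4 media: fibroblast growth factor 2 (FGF2, 10 ng/ml) plus 1 µM JAK inhibitor I, FGF2 (10 ng/ml) plus LIF, PD0325901 plus 1 µM JAK inhibitor I, or PD0325901 plus LIF. CHIR99021 is named for none of these 4 media. All 4 conditions share the line and its preculture, and each has a single Illumina bead array (1 per condition), so there are no replicates. The media answer what ERK stimulation in place of MEK inhibition does, and what JAK inhibition in place of LIF does. Adding one agent and leaving out the other cannot be told apart.

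PRC2 places methyl groups on lysine 27 of histone H3, a mark of silenced genes. Its core joins a methyltransferase, Ezh2 or the related Ezh1, to Suz12, which holds the complex together, and to Eed, which reads the finished mark and raises the activity of the enzyme. Accessory proteins bring the complex to unmethylated CpG-rich DNA, among them the Polycomb-like proteins Mtf2 and Phf19 and the JmjC-domain protein Jarid2. In ES cells the complex keeps developmental regulator genes silent, and cells that lack a core subunit still self-renew but differentiate poorly.

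The arrays detected 10626 to 10927 probes (detection p below 0.01), and the beads of a probe gave a standard error of 4.08% to 4.56% of its signal (array medians over probes detected on all 4). All 8 ES cell markers checked, Pou5f1, Sox2 and Nanog among them, were detected on all 4 arrays. Of these, Tdgf1, a Nodal co-receptor, fell by 1.19 on the log2 scale with the JAK inhibitor (adjusted p = 0.0318), and Nanog stood at −0.59 for FGF2 and −0.40 for the JAK inhibitor without passing the test. Of 9 fibroblast and feeder markers, 5 were detected, and Col1a2, Col3a1, Postn and Pdgfrb were not. The summed normalized signal of those 5 was 2175 under FGF2 plus the JAK inhibitor, 2346 under FGF2 plus LIF, 3202 under PD0325901 plus the JAK inhibitor, and 3635 under PD0325901 plus LIF. Acta2 makes up most of that sum. Dcn had log2 values between 6.45 and 6.70 in the first 3 media and 8.86 under PD0325901 plus LIF, Lum was at least 3.19-fold lower under FGF2 plus LIF than under PD0325901 plus LIF, and Col1a1 had 6.69, 6.15, 6.54 and 6.70. The part of these markers in the differences given here was not tested. Both switches were visible on these arrays: Egr1, an immediate early target of ERK, rose with FGF2 by a mean of 3.77 on the log2 scale, a size that rests on 1 undetected value (at least 14.8-fold beside the JAK inhibitor), and Socs3, a feedback inhibitor induced by STAT3, fell by 4.34 with the JAK inhibitor. Stat3 itself fell by 1.71 with the JAK inhibitor, and Spry4, an ERK feedback gene, stood at 1.38 for FGF2 without passing the test.

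Of the 10 probes, 7 were detected on at least 1 array and 6 on all 4, so that 6 of the 7 genes could be compared and Jarid2 could not. The subunit genes had smaller differences than Egr1 and Socs3, which were chosen as checks of the switches. For FGF2 against PD0325901, 0 of the 6 passed the additive limma fit at an adjusted p of 0.05, where 0.240% of all 8341 genes did. For the JAK inhibitor against LIF the count was also 0 of 6, with 0.288% of all genes called. At shares this small, 0 of 6 says nothing particular to the subunit genes. At an unadjusted p below 0.05 these counts were 0 of 6 for FGF2 (11.5% of all genes) and 2 of 6 for the JAK inhibitor (10.6% of all genes), the 2 being Eed and Ezh1. Ezh1 was kept for the fit only through its detection on both LIF arrays, so its lower value with the JAK inhibitor is no support for a direction, and over genes detected on all 4 arrays Eed is the 1 left. Signals below are mean bead intensities as deposited, with the bead standard error of that array. Normalized values are background-corrected, quantile-normalized and on the log2 scale. The subunit genes are compared between arrays for 1 probe at a time, not between probes.

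**Figure D1:**
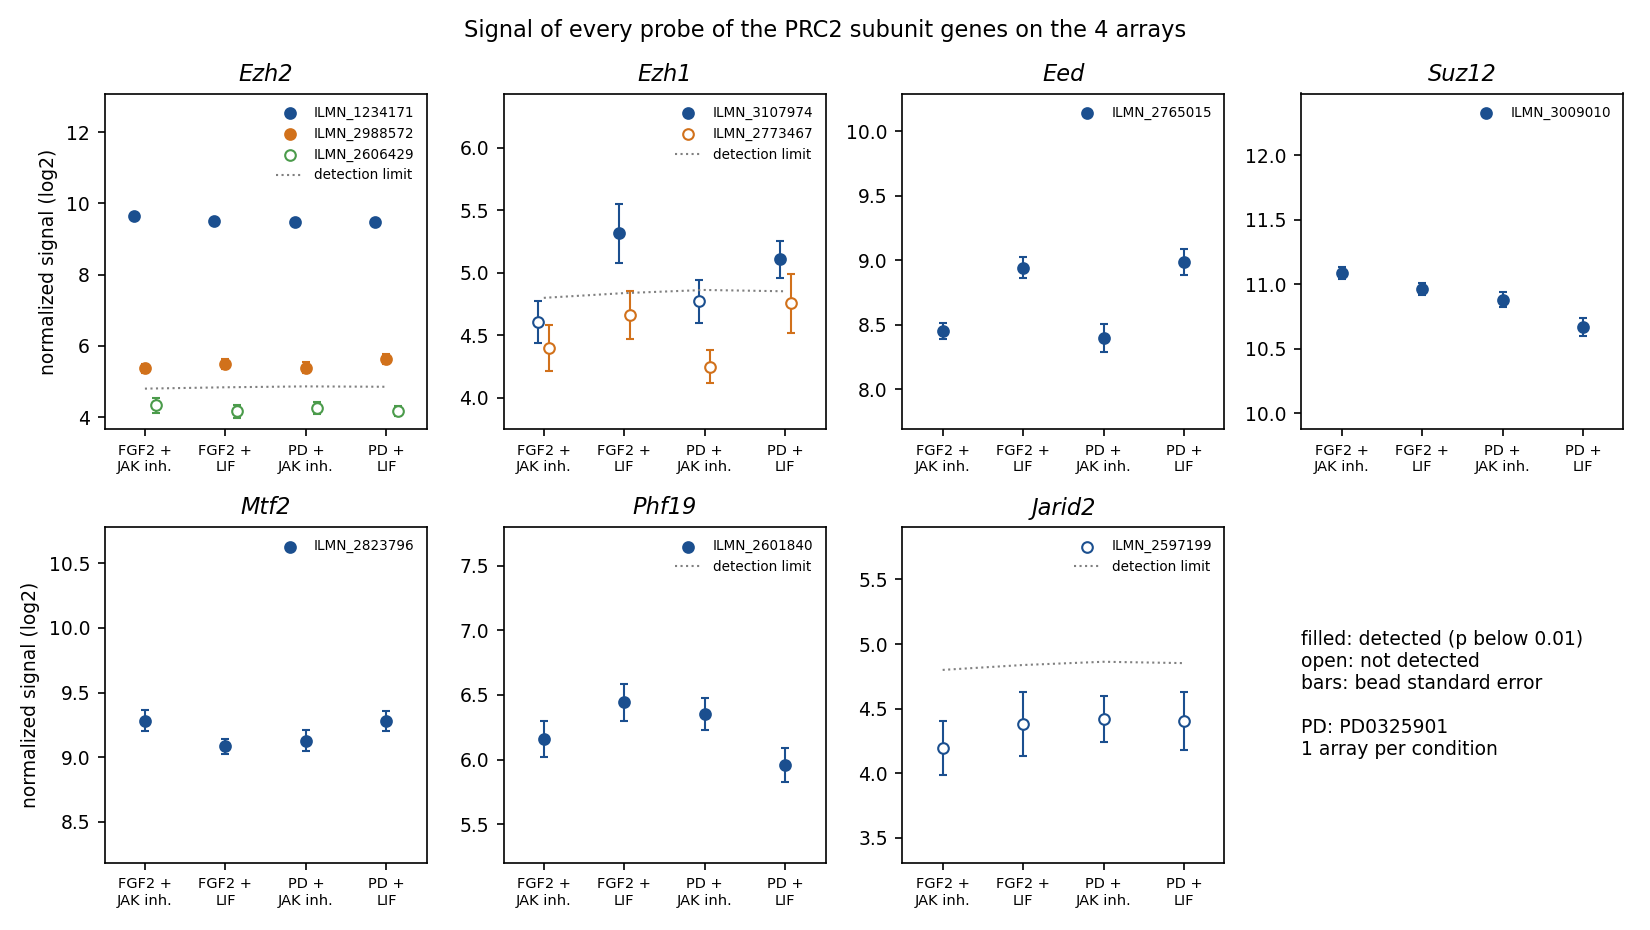
Normalized log2 signal (vertical axis) of all 10 probes of the 7 genes on the 4 arrays (horizontal axis), with bars for the bead standard error, filled points where the probe was detected and open points where it was not. Eed sits between 8.40 and 8.45 in both media with the JAK inhibitor and between 8.94 and 8.98 in both media with LIF, while the main Ezh2 probe stays between 9.47 and 9.66 throughout.

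Ezh2, the main methyltransferase of proliferating cells, varied little by its bright probe (ILMN_1234171). That probe had signals of 1038 ± 51.1 under FGF2 plus the JAK inhibitor, 830 ± 34.1 under FGF2 plus LIF, 662 ± 35.0 under PD0325901 plus the JAK inhibitor, and 731 ± 35.8 under PD0325901 plus LIF (bead SE). After normalization the 4 values were 9.66, 9.51, 9.47 and 9.49 in the same order of media. The array under FGF2 plus the JAK inhibitor was the highest, and the other arrays lay close together, between 9.47 and 9.51. The range of 0.19 on the log2 scale was wider than that of 12.9% of the 6769 genes detected on every array, whose median range was 0.37. The mean log2 difference was 0.10 ± 0.16 for FGF2 against PD0325901 (SE of the additive limma fit, 95% interval −0.26 to 0.46) and 0.07 ± 0.16 for the JAK inhibitor against LIF (−0.29 to 0.43). Both intervals take in 0 and stop short of a 1.5-fold change, a log2 value of 0.58 in either direction.

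The probes of Ezh2 did not agree in sign. A dim second probe (ILMN_2988572), with a wider spread, was detected on all 4 arrays and gave normalized values of 5.37 under FGF2 plus the JAK inhibitor, 5.50 under FGF2 plus LIF, 5.39 under PD0325901 plus the JAK inhibitor, and 5.62 under PD0325901 plus LIF. Its mean log2 difference was −0.18 ± 0.14 for the JAK inhibitor against LIF and −0.072 ± 0.14 for FGF2 against PD0325901 (error from the beads alone), so neither of its differences was far outside bead error. The remaining probe (ILMN_2606429) was not detected on any array, with detection p-values of 0.296 to 0.966. All 3 probes were assigned to the same transcript accession.

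Ezh1, the second methyltransferase, which prevails in resting and differentiated cells, was measured near the detection limit. Its better probe (ILMN_3107974) was detected in both media with LIF and in neither medium with the JAK inhibitor. Signals were 94.6 ± 3.03 under FGF2 plus the JAK inhibitor (detection p 0.0376), 106 ± 6.57 under FGF2 plus LIF, 86.1 ± 3.09 under PD0325901 plus the JAK inhibitor (0.0188), and 97.7 ± 3.33 under PD0325901 plus LIF (0.00376). With the undetected array set at its detection limit, the LIF array stood 1.43-fold above that limit beside FGF2 and 1.19-fold beside PD0325901. These bounds leave out the bead errors of the LIF arrays, 0.23 and 0.15 on the log2 scale in that order. Ezh1 was kept only through those arrays, so the bounds support no direction for the JAK inhibitor against LIF. The additive fit gave a mean log2 difference of −0.52 ± 0.17 (unadjusted p = 0.0139, adjusted p = 0.363), a size that rests on undetected values. That mean was −0.17 without background correction, −0.25 with a background offset of 50 and −1.24 in the value table of the authors, and passed the test in none of these. FGF2 stood 0.21 above PD0325901 beside LIF, while beside the JAK inhibitor Ezh1 was detected on neither array and no difference is given. The other probe (ILMN_2773467) was not detected on any array and stood just outside the detection threshold at its best, with a detection p of 0.0125 for PD0325901 with LIF, where the better probe stood just inside with 0.00376.

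Eed, the subunit that binds trimethylated lysine 27, showed the clearest separation of the 4 arrays. Its single probe (ILMN_2765015) had signals of 495 ± 18.2 under FGF2 plus the JAK inhibitor, 578 ± 29.9 under FGF2 plus LIF, 352 ± 21.6 under PD0325901 plus the JAK inhibitor, and 530 ± 32.7 under PD0325901 plus LIF. Normalized values were 8.45, 8.94, 8.40 and 8.98 in that order. Both arrays with the JAK inhibitor were lower than both with LIF. The value table of the authors, processed separately, held 340, 482, 325 and 498 for the same media.

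The difference for Eed between the JAK inhibitor and LIF was −0.49 ± 0.10 beside FGF2 and −0.59 ± 0.15 beside PD0325901 (log2, error from the beads alone). Its mean of −0.54 ± 0.15 (SE of the additive limma fit, 95% interval −0.89 to −0.18) made Eed 1.45-fold lower on average and had an unadjusted p of 0.00826. Over all genes the adjusted p was 0.336, so Eed was not called. Of 8341 genes, 90 (1.08%) were at least as low as Eed in both backgrounds. The call depended on the processing: Eed passed with an adjusted p of 0.00153 without background correction, 0.00721 with a background offset of 50 and 0.0108 with an intensity trend in eBayes. In these settings the prior of the fit had infinite degrees of freedom, so the spread of Eed itself had no part in its error. They called 346, 272 and 296 of 8341 genes in that order, against 24 here, so a pass there is not particular to Eed. Under the 9 alternatives its mean stayed between −0.56 and −0.46. Some of them could not move it, since Eed has a single probe that was detected on every array. These changed the detection filter, the eBayes prior or the probe standing for a gene, and the mean was −0.54 in each. The range thus speaks only for the background correction, the normalization and the value table of the authors. Between FGF2 and PD0325901 Eed differed by only 0.057 beside the JAK inhibitor and −0.042 beside LIF, both under their bead errors of 0.12 and 0.13.

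The promoter of Eed was set beside that of Socs3 because the JAK inhibitor against LIF was the comparison in which Eed differed, and Socs3 is a direct target of STAT3. The letters searched were TTCNNNGAA, a motif bound by STAT factors, which reads the same on both strands. RefSeq windows (GRCm38.p6) held 250 bases before and 50 after each gene's start. All 7 members had a window, and Mtf2 and Jarid2 had 2 each. The motif was found in 0 of these 9 windows, and in 8.30% of all 32851 windows and 6.67% of those of detected genes. That of Socs3 held 1 match. The 250 bases before the start of Eed (chr7:89980977-89981226, minus strand), Socs3 (chr11:117969367-117969616, minus strand) and Suz12 (chr11:79992856-79993105, plus strand) are printed 5′ to 3′ with matches in capitals.
Eed: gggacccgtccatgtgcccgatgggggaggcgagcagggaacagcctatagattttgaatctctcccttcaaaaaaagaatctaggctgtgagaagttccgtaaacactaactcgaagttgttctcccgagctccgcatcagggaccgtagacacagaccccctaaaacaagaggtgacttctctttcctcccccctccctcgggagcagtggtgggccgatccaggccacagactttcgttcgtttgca
Socs3: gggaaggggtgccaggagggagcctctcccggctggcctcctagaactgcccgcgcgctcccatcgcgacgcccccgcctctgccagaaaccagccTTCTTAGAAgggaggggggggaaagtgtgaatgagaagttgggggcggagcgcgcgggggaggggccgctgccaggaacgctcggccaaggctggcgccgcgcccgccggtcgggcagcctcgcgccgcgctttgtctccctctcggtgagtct
Suz12: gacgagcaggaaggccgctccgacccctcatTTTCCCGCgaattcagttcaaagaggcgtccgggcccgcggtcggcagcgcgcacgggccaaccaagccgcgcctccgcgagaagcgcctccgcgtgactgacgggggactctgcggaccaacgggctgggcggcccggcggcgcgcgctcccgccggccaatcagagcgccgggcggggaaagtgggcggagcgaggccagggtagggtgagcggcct
The capitals in Socs3 are the STAT motif, and Eed has none. Those in Suz12 are a motif of E2F factors, which drive genes of DNA replication, searched as TTTCCCGC or TTTGGCGC on both strands. The E2F letters were also found once in the windows of Ezh2 and Phf19, making 3 of 9 windows, against 1.56% of all windows and 2.73% of those of detected genes. Both E2F strings hold a CpG. The matching windows held 31 (Ezh2), 41 (Suz12) and 38 (Phf19) CpG, and the member windows without a match 2 to 30. The median over windows of detected genes was 20. The part of base composition in this share was not tested. A match is a run of letters, and no match says only that these letters are not in this window.

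Suz12, the scaffold of the complex, was highest under FGF2 plus the JAK inhibitor and lowest under PD0325901 plus LIF. The signals of its probe (ILMN_3009010) were 2603 ± 82.7 under FGF2 plus the JAK inhibitor, 2129 ± 68.7 under FGF2 plus LIF, 1667 ± 67.1 under PD0325901 plus the JAK inhibitor, and 1630 ± 76.5 under PD0325901 plus LIF. Normalized, they became 11.08, 10.96, 10.88 and 10.67. Both arrays with FGF2 lay above both with PD0325901. FGF2 exceeded PD0325901 by 0.20 ± 0.076 beside the JAK inhibitor and by 0.29 ± 0.085 beside LIF (log2, bead error). The mean of 0.25 ± 0.15 (SE of the additive limma fit, 95% interval −0.11 to 0.60, adjusted p = 0.554) did not pass the test. For the JAK inhibitor against LIF the mean was 0.17 ± 0.15, with 0.12 beside FGF2 and 0.21 beside PD0325901. Suz12 was thus higher in all 4 differences while Eed was lower in both JAK inhibitor differences. Neither gene passed the test here, and the 4 differences come from the same 4 arrays. The range of Suz12 over the arrays (0.41) was wider than that of 57.4% of the genes detected on every array.

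Mtf2 and Phf19 are the Polycomb-like subunits, which bind CpG-rich DNA and recruit the complex. Mtf2 (ILMN_2823796) had signals of 818 ± 42.5 under FGF2 plus the JAK inhibitor, 630 ± 23.3 under FGF2 plus LIF, 541 ± 26.5 under PD0325901 plus the JAK inhibitor, and 638 ± 31.1 under PD0325901 plus LIF. The normalized values of 9.28, 9.08, 9.13 and 9.28 had a range of 0.20, and the 2 highest arrays shared no agent. Its mean log2 differences were −0.022 ± 0.17 for FGF2 against PD0325901 and 0.022 ± 0.17 for the JAK inhibitor against LIF. The sign of the first turned without normalization between arrays (0.31) and with median scaling (0.23).

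In the main processing the differences of Phf19 (ILMN_2601840) had opposite signs depending on the other agent. Signals were 154 ± 8.24 under FGF2 plus the JAK inhibitor, 155 ± 8.97 under FGF2 plus LIF, 133 ± 6.28 under PD0325901 plus the JAK inhibitor, and 122 ± 5.15 under PD0325901 plus LIF. The normalized values were 6.16, 6.44, 6.35 and 5.96, so that PD0325901 with LIF was the lowest array and FGF2 with LIF the highest. FGF2 exceeded PD0325901 by 0.48 ± 0.19 beside LIF (bead error) and stood at −0.20 ± 0.19 beside the JAK inhibitor. Likewise the JAK inhibitor against LIF gave 0.39 ± 0.18 beside PD0325901 and −0.29 ± 0.20 beside FGF2. The departure from additivity, the FGF2 difference beside the JAK inhibitor minus that beside LIF, was −0.68 ± 0.27 (bead error). It was −0.36 without background correction and −0.41 without normalization between arrays, and with 1 array per condition it has no test. The opposite signs for FGF2 were lost in 2 settings. The FGF2 mean was 0.43 without normalization and 0.35 with median scaling, and Phf19 was higher with FGF2 in both backgrounds there. Both settings shift FGF2 differences of all genes upwards. Mtf2 departed by 0.35, and further than Phf19 without normalization (0.67) and with median scaling (0.56 against −0.51), and Ezh1 did so in the value table of the authors (−1.07 against −0.85). The means were 0.14 ± 0.19 for FGF2 and 0.055 ± 0.19 for the JAK inhibitor (SE of the additive limma fit), with adjusted p-values of 0.804 and 0.939.

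Jarid2, which helps to load PRC2 onto chromatin and is itself methylated by it, had 1 probe (ILMN_2597199), and this was not well above background on any array. Its signals were 80.6 ± 2.71 under FGF2 plus the JAK inhibitor, 85.0 ± 3.54 under FGF2 plus LIF, 79.8 ± 2.55 under PD0325901 plus the JAK inhibitor, and 84.4 ± 3.27 under PD0325901 plus LIF, and the detection p-values ran from 0.172 to 0.822. No fold is given for it, and the values speak for this probe only.

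**Figure D2:**
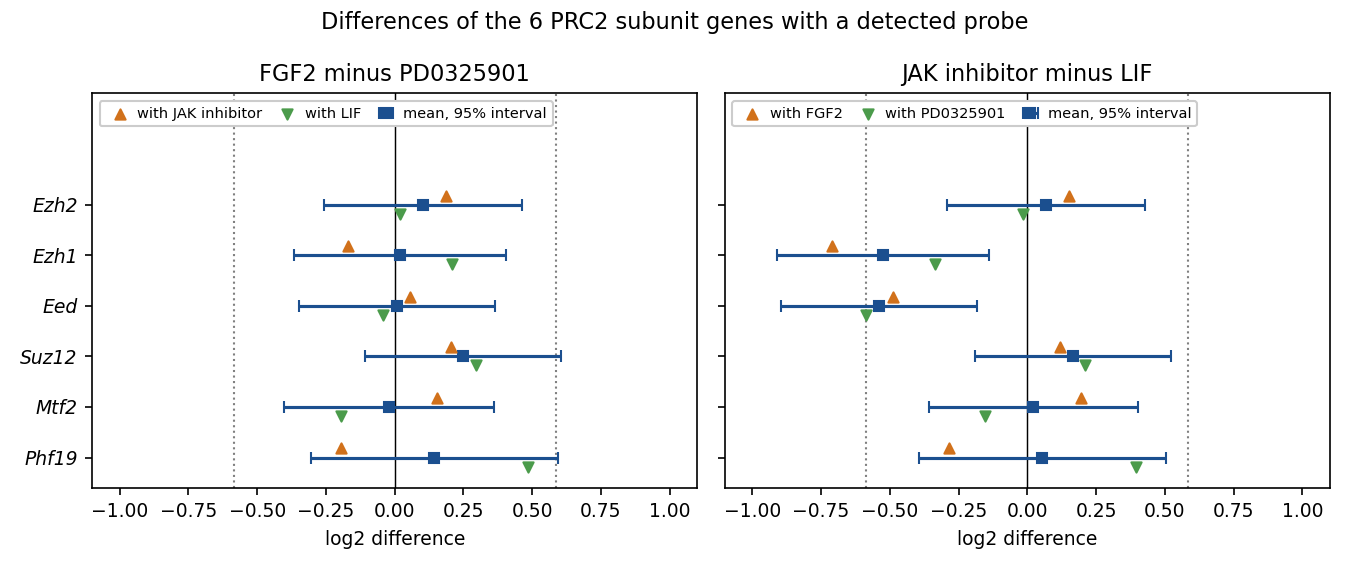
Log2 differences (horizontal axis) of the 6 genes with a detected probe, for FGF2 minus PD0325901 (left) and the JAK inhibitor minus LIF (right). Squares with bars are the mean and 95% interval of the additive limma fit, triangles the difference in each background, and dotted lines mark 1.5-fold. Eed and Ezh1 alone have intervals that leave out 0, both for the JAK inhibitor, at −0.54 and −0.52, before adjustment over all genes. The value of Ezh1 rests on undetected values and supports no direction, since it was kept only through the LIF arrays.

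Counts out of 6 cannot be told from the shares of all genes given beside them. By background, the subunit genes that reached 1.5-fold were as follows. None of the 6 did so for FGF2 against PD0325901, beside the JAK inhibitor (4.68% of all genes) or beside LIF (9.48% of all genes). For the JAK inhibitor against LIF, Ezh1 did beside FGF2 (4.68% of all genes), where its size rests on an undetected value, and Eed did beside PD0325901 at 0.665 of the LIF value (9.42% of all genes). The median mean log2 difference of the 6 was 0.061 for FGF2 against −0.0053 over all genes, and 0.039 for the JAK inhibitor against 0.010 over all genes. In absolute size the medians were 0.062 and 0.12, against 0.16 and 0.15 over all genes. The 2 FGF2 differences come from separate pairs of arrays, as do the 2 JAK inhibitor differences, while each FGF2 difference shares arrays with each JAK inhibitor difference.

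**Figure D3:**
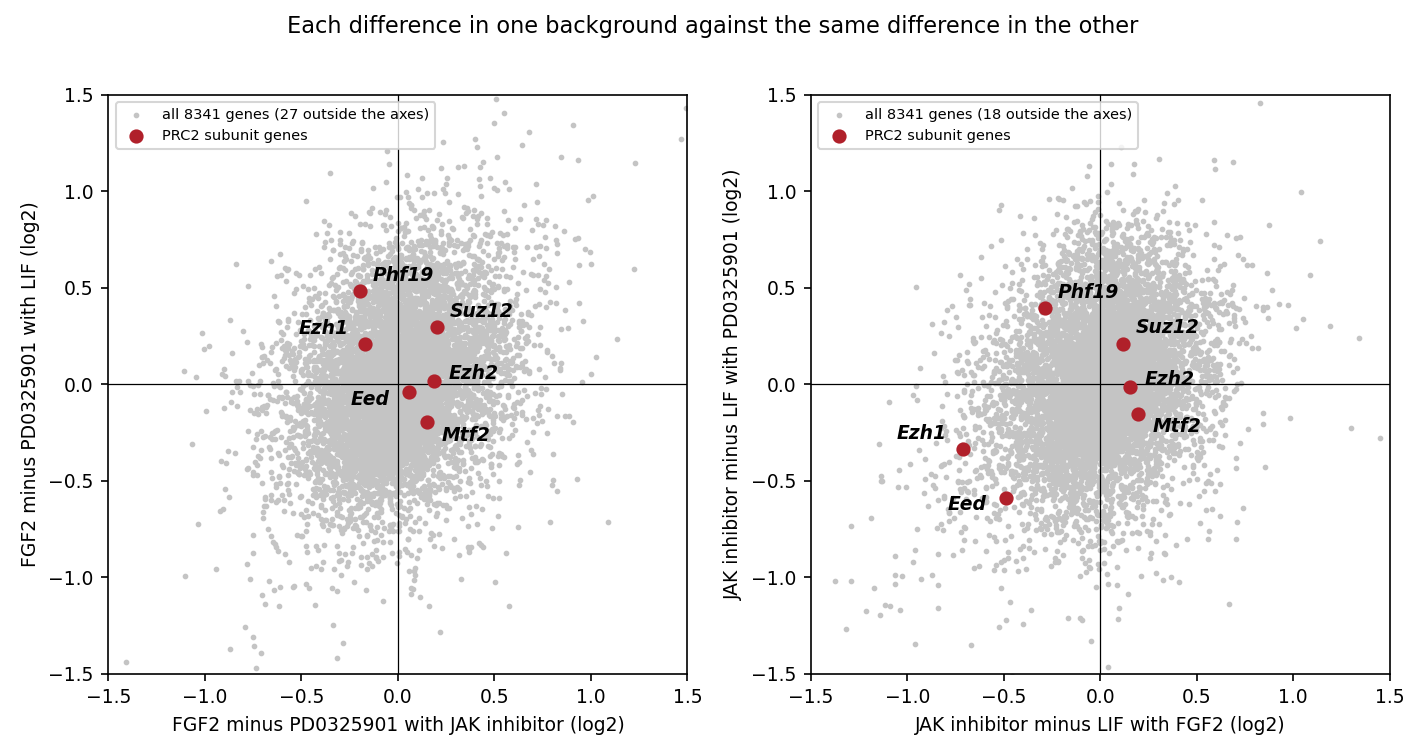
Each log2 difference in one background against the same difference in the other for all 8341 genes (grey) and the 6 subunit genes (red), with FGF2 minus PD0325901 on the left and the JAK inhibitor minus LIF on the right; 27 and 18 genes lie outside the axes. Suz12 is above 0 in all 4 differences, Eed lies at −0.49 and −0.59 on the right, and Phf19 has opposite signs in the 2 backgrounds in both panels.

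Other genes of the Polycomb system were read from 6 lists, and in each list 0 genes passed the additive limma fit for either factor. Of 8 further PRC2 subunits, 7 had a probe and 4 were detected: the histone chaperone Rbbp7 (−0.26 for FGF2, 0.13 for the JAK inhibitor), Aebp2 (0.031 and −0.11), a partner of Jarid2 in the complex, Epop (0.34 and −0.045), which links PRC2 to elongin, and the PRC2 inhibitor Ezhip (0.085 and 0.27), as mean log2 differences, all 4 being given because they are the detected part of that list. Of 23 genes of Polycomb repressive complex 1 (PRC1), which ubiquitinates histone H2A, 18 were detected, 14 of them on all 4 arrays, with medians of 0.081 for FGF2 and 0.15 for the JAK inhibitor. Their values ran from −0.33 to 0.52 for FGF2 and from −0.29 to 0.58 for the JAK inhibitor. The list of H3K27 demethylases and trithorax genes, which oppose Polycomb, had 8 of 12 genes detected and medians of −0.023 and 0.054. The FGF2 median of that list was above 0 without normalization between arrays (0.31) and with median scaling (0.23), settings that shift all genes upwards. Its demethylases were Kdm6a, at 0.23 for FGF2 and 0.25 for the JAK inhibitor, and Kdm6b, at 0.53 and −0.14. Both were picked after their values had been seen. Kdm6b was 0.57 and 0.49 for FGF2 beside the JAK inhibitor and LIF, with an adjusted p of 0.289. Other histone methyltransferases and demethylases had medians of 0.11 and 0.14 over 15 detected genes.

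Known Polycomb target genes of ES cells were mostly not detected on these arrays. Of 34 developmental regulators and other targets 32 had a probe, and 24 of those (75.0%) had none detected on any array, Pax6, Olig2 and Sox17 among them, while 49.7% of all named genes had none detected. Not being detected speaks for the probe, not for the gene. Only 3 of the 8 detected were so on all 4 arrays, and the others were kept through the arrays where they are higher, so their medians (0.13 for FGF2 and −0.065 for the JAK inhibitor) support no direction. The FGF2 median was 0.0062 with no detection filter and 0.29 in the value table of the authors. Gata6, a regulator of primitive endoderm, was at least 1.5-fold higher with FGF2 in both backgrounds, by 0.70 beside the JAK inhibitor and 0.80 beside LIF, but did not pass the test (adjusted p = 0.152), and its JAK inhibitor mean was −0.60 (adjusted p = 0.274). The other detected primitive endoderm marker, Dab2, went the other way for FGF2, by −0.44 and −0.61, and Gata4, Sox17 and Pdgfra were not detected. Gata6 therefore does not speak for that lineage. Proliferation and DNA replication genes, beside which Ezh2 levels are often read, had medians of 0.062 for FGF2 and 0.17 for the JAK inhibitor over 12 detected genes.

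**Figure D4:**
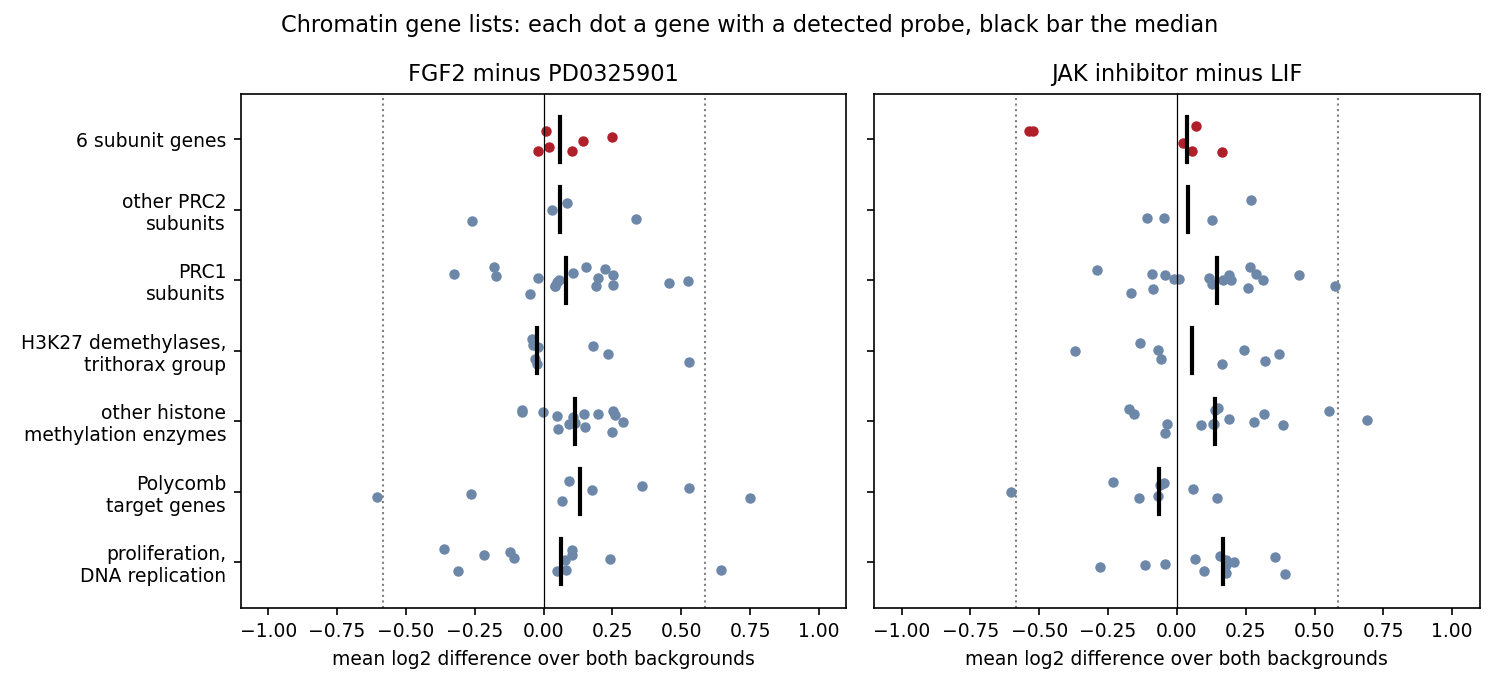
Mean log2 difference over both backgrounds (horizontal axis) of each detected gene in the 6 subunit genes and the 6 lists, for FGF2 minus PD0325901 (left) and the JAK inhibitor minus LIF (right), with a black bar at each median and dotted lines at 1.5-fold. The subunit genes span −0.022 to 0.25 on the left, and on the right Eed and Ezh1 lie near −0.5. The place of Ezh1 rests on undetected values and supports no direction, since it was kept only through the LIF arrays.

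Genes with the most similar course over the 4 arrays were sought among genes detected on all of them, by the root mean square distance of centred log2 values. For Ezh1, whose range of 0.71 was the widest but is set by an undetected value, the nearest were Zfp691 (0.030), Clba1 (0.042) and Mmp1a (0.044). For Eed, which had the widest range (0.59) of the 5 genes detected on all 4 arrays and was added after its values had been seen, they were Pcolce2 (0.0092), Cotl1 (0.028) and Ptp4a3 (0.033). With 4 arrays and 6769 genes such small distances are a description of these arrays only.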

How the data were processed

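RNA of 4 cultures was measured on 4 arrays. Per the labels' protocols, column-purified total RNA was amplified and labelled with Cy-3, and BeadStudio is the software named (per the submitters' processing notes), without version or settings. The deposited array files hold for each probe an intensity, taken as the mean bead signal with no normalization, the bead standard error of that intensity, and a detection p-value. The detection p-values in the deposited files moved in steps of 1 in 798. The value table of the authors holds whole-number intensities with equal medians on the 4 arrays, made in a way that no label describes.

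Signals were corrected with the nec function of limma 3.58.1 (R 4.3.3) from the detection p-values (offset 16), log2-transformed and quantile-normalized. A probe was kept if any array had its detection p below 0.01 (12089 probes), and the brightest probe stood for its gene, giving 8341 genes. Of all probes, 23978 had a symbol and 1719 had none. A limma fit (lmFit, eBayes; p-values adjusted by Benjamini-Hochberg across the 8341 genes) had both factors as additive terms. Its error is the departure from additivity, with 1 residual degree of freedom per gene and a prior of 7.01 degrees of freedom, so p-values and intervals assume that the factors add and measure the spread between these arrays only. Bead errors cover the beads of 1 array and were carried to log2 by dividing by the corrected signal. Where a probe was detected on 1 array of a pair, the fold was bounded with the lowest signal of a detected probe on the other array, or the probe's own signal there if higher. The fit was tested on simulated data.

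The members and lists were chosen with earlier results of these data known. Genes beyond the members were named where they passed the test or were 1.5-fold the same way in both backgrounds, or as checks of the switches. Marker genes, the 4 further PRC2 subunits and genes said to be picked after their values were seen are exceptions. Promoter sequences are RefSeq's (GRCm38.p6). Coordinates are given for those promoters alone, in that build.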

Additional observations from a re-analysis of the deposited data

Results flagged for a closer look

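No subunit gene could be examined for an array far from its group, since each condition has 1 array. Subunit genes whose difference had opposite signs in the 2 backgrounds are listed with the log2 difference between backgrounds, which was not tested. For FGF2 against PD0325901 these were Phf19 (−0.68), Ezh1 (−0.38, with undetected values), Mtf2 (0.35) and Eed (0.099). For the JAK inhibitor against LIF they were Phf19 (−0.68), Mtf2 (0.35) and Ezh2 (0.17). The value is the same for both factors by construction. The bead error of the value was 0.27 for Phf19, 0.37 for Ezh1, 0.15 for Mtf2, 0.18 for Eed and 0.15 for Ezh2. Across alternatives the values ran from −0.85 to −0.36 for Phf19, −1.07 to −0.13 for Ezh1, 0.31 to 0.67 for Mtf2, 0.085 to 0.41 for Eed and 0.13 to 0.49 for Ezh2. In all, 7 of 12 differences looked at had opposite signs in the main processing. Phf19 and Mtf2 count for both factors through the same value. For Eed, and for Ezh2 beside PD0325901 (−0.016 ± 0.11, bead error), the sign rests on differences inside bead error. The share over all genes was not taken, so the count says nothing particular to the subunit genes.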

How the results depend on the processing

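The 9 alternatives left out the background correction, raised its offset, left out or changed the normalization, used the value table of the authors, changed the detection filter, the eBayes prior or the probe standing for a gene. For FGF2 against PD0325901, 0 subunit genes passed in each of them. For the JAK inhibitor against LIF, 1 passed without background correction, 1 with an offset of 50 and 1 with an intensity trend, each time Eed, and 0 in the other 6. Counts over all genes were 20 for FGF2 and 24 for the JAK inhibitor. They became 400 and 346 without background correction, 320 and 272 with an offset of 50, 444 and 49 without normalization, 438 and 94 with median scaling, 0 and 0 in the value table of the authors, 0 and 8 with no filter, 60 and 47 with detection on all 4 arrays, and 360 and 296 with the trend. Means of subunit genes changed sign in 4 cases, none of them past the test: Mtf2 for FGF2 without normalization between arrays (0.31) and with median scaling (0.23), Ezh1 for FGF2 in the value table of the authors (−0.12), and Ezh2 for the JAK inhibitor as the mean of its detected probes (−0.058). Without normalization the median of all genes moved to 0.42 for FGF2 beside the JAK inhibitor and 0.14 beside LIF, and with median scaling to 0.29 and 0.11, so positive FGF2 values there carry that shift. The departure of Suz12 was −0.092 and became 0.26 and 0.15 in these settings. Ezh1 could not be compared with detection required on all 4 arrays. No paired analysis was possible because each condition has 1 array. The number of arrays, and signals near background for Ezh1, Phf19 and Jarid2, limit what these data show.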

Other observations

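Further genes of the Polycomb and heterochromatin systems, named after their values had been seen, did not pass the test here but did in some alternatives. For the JAK inhibitor against LIF, Phc1, a PRC1 subunit that polymerizes, had a mean log2 difference of 0.44 (0.14 beside FGF2 and 0.75 beside PD0325901) and passed in 3 alternatives. Bcor, a corepressor in variant PRC1, stood at 0.58 (0.29 and 0.86) and also passed in 3, as did the H3K9 methyltransferase Setdb1 at 0.55 (0.34 and 0.76). Dpy30, a subunit of H3K4 methyltransferase complexes, stood at −0.37 and passed in 2, as did the replication genes Mcm6 (0.39) and Top2a (0.36), while Ash2l and Kdm5c passed in 1 each. Kdm5c was detected only under FGF2 plus the JAK inhibitor, so its pass rests on undetected values and supports no direction. For FGF2 against PD0325901, Scmh1, a PRC1 subunit, stood at 0.52 (0.38 beside the JAK inhibitor and 0.66 beside LIF) and passed in 4, Kdm6b in 5, Gata6 in 6, the cyclin gene Ccne1 in 5, and Epop, Otx1 and Bcor in 2 each. Otx1, not detected under PD0325901 plus LIF, and Bcor passed for FGF2 only without normalization between arrays and with median scaling. Both settings raised the median FGF2 difference of all genes. The counts of Scmh1, Kdm6b, Gata6 and Ccne1 include the same settings. Apart from Gata6 with detection required on all 4 arrays, every pass named here came from a setting whose prior had infinite degrees of freedom. There the spread of the gene itself had no part in its error, so the number of passes is no measure of how firm a value is. In a single alternative up to 444 of 8341 genes passed for FGF2 and up to 346 for the JAK inhibitor, against 20 and 24 here. No explanation was tested for these values.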
